A study of Rattus norvegicus with 2 samples.

Results

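The small heat shock proteins are a family of chaperones, and the genes described here are Hspb1, Hspb2, Hspb3, Cryab, Hspb6, Hspb7 and Hspb8. They were found by exact match of the gene name on the rows of the deposited matrices, which gave 7 of 23373 rat rows in the SD rat and 7 rat and 7 mouse rows of 49279 rows in the chimera. All 7 members had counts in both libraries. Single cells were profiled from skeletal muscle of a rat-mouse chimera and of a control Sprague-Dawley (SD) rat, with 1 animal and 1 library each. The question of the comparison was which muscle cells of the chimera derived from mouse induced pluripotent stem cells (iPSCs). The chimera arose from an SD rat embryo injected with mouse Dmd mdx; Pax7-nGFP iPSCs, which carried the mdx mutation of dystrophin, repaired by CRISPR/Cas9 exon skipping, and a nuclear GFP driven by Pax7. Its rat cells were therefore SD host cells and its mouse cells descended from an edited iPSC line. The control was an SD rat with no injected cells. The sources used here do not give the age or sex of either animal, and muscle from the whole body was pooled and digested with collagenase for both.

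Small heat shock proteins hold unfolding proteins in a soluble state without using ATP and pass them to the HSP70 and HSP90 machinery. Several members are enriched in heart and skeletal muscle, where they bind actin filaments, desmin, titin or filamin. Hspb8 acts with the co-chaperone Bag3 in the removal of damaged filamin, and part of the family is induced by heat shock factor while part is not.

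The promoter windows are shown to set the letters before the start of each gene beside its levels in heat shock and muscle contexts. A window of 250 bases before the annotated start was present for 5 of 7 members (RefSeq, assembly GRCr8), and Hspb2 and Cryab had no entry. Sequences are written 5′ to 3′ along the gene's strand, and capitals mark 2 head-to-head or tail-to-tail heat shock element units (GAANNTTC or TTCNNGAA, each its own reverse complement) or a MEF2 site, searched on both strands.

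Hspb1: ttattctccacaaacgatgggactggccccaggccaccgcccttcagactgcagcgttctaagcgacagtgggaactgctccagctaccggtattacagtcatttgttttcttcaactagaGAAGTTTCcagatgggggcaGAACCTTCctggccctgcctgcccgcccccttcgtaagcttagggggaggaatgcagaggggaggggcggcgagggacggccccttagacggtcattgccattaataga
Hspb6: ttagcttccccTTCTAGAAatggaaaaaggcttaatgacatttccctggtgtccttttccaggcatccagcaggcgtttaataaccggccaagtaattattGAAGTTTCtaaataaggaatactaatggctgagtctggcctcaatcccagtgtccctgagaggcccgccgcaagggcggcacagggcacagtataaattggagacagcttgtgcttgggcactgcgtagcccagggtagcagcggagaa
Hspb8: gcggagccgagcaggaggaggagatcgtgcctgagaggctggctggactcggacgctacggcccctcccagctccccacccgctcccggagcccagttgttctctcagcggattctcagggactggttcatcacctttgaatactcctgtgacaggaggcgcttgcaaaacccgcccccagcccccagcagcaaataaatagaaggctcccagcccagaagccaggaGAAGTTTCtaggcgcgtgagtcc
Hspb3: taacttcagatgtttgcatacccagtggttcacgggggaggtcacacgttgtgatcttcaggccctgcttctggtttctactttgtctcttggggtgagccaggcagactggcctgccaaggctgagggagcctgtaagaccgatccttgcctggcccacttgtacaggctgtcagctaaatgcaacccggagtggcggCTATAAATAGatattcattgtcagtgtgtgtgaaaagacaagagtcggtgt
Hspb7: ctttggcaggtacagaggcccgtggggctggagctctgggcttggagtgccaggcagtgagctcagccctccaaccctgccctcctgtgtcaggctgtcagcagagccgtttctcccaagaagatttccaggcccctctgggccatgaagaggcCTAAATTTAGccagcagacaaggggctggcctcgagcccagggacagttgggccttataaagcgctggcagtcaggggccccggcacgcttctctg

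The windows lie at chr12:26432302-26432551 on the minus strand for Hspb1, chr1:94934122-94934371 on the plus strand for Hspb6 and chr12:45837058-45837307 on the plus strand for Hspb8. Those of Hspb3 and Hspb7 lie at chr2:47029166-47029415 on the minus strand and chr5:159010509-159010758 on the plus strand. Hspb1 held GAAGTTTC from 129 to 122 bases and GAACCTTC from 109 to 102 bases before the start. Hspb6 held TTCTAGAA from 239 to 232 bases and GAAGTTTC from 149 to 142 bases before it, and Hspb8 held GAAGTTTC from 23 to 16 bases before it. No such pair lay in the windows of Hspb3 and Hspb7, which each held a MEF2 site instead, from 51 to 42 and from 96 to 87 bases before the start. The site of Hspb3 overlaps a TATAAA. Over 33469 windows of the same length, GAANNTTC was present in 7.23%, TTCNNGAA in 7.48%, either in 13.5% and a MEF2 site in 2.96%. A match is a description of letters and was not tested as a binding site.

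The chimera library held 118872850 unique molecular identifiers (UMIs, 1 per captured transcript) over 13299 barcodes and the SD rat library 70957559 over 10117, and 43 barcodes occurred in both. After filters and removal of predicted doublets, 8816 SD rat cells, 8230 chimera rat cells (at most 20% of UMIs on mouse rows) and 1847 chimera mouse cells (at least 80%) were compared, and 1653 chimera barcodes of mixed species were set aside. Cell classes were assigned from marker genes, and 85.4%, 84.7% and 86.7% of the cells passed a gate. The labelled tissue carried its markers, and 1604 SD rat, 848 chimera rat and 30 chimera mouse cells were myofibre-like, with a median of 12 or more of 17 rat or 20 mouse myofibre markers detected and 34.0%, 35.4% and 28.2% of their UMIs on those markers. Of the SD rat cells, 10.7% lay near a gate, as did 10.6% and 7.9% of the chimera rat and mouse cells. Levels are counts per 1000000 UMIs of the cells' own species, summed over a class (CPM), with 95% exact Poisson intervals that cover counting error only. With 1 library per group no p-value can be given.

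In the SD rat the members divided by cell class. Hspb1 was highest in endothelial cells, Hspb3, Hspb6 and Hspb7 in myofibre-like cells, Cryab in Myog-positive myogenic cells, Hspb2 in smooth muscle and Hspb8 in pericyte-like and myofibre-like cells. With Leiden clusters in place of gates, which gave no Myog-positive or smooth muscle class in the SD rat, 6 members rather than 3 were highest in myofibre-like cells of the SD rat. The members' UMIs summed to 4234 CPM in myofibre-like, 6179 CPM in endothelial-like and 152 CPM in T and NK-like cells of the SD rat. In chimera rat cells the sums were 4284, 7057 and 113 CPM, and in chimera mouse cells 2222, 5217 and 33.9 CPM.

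**Figure D1:**
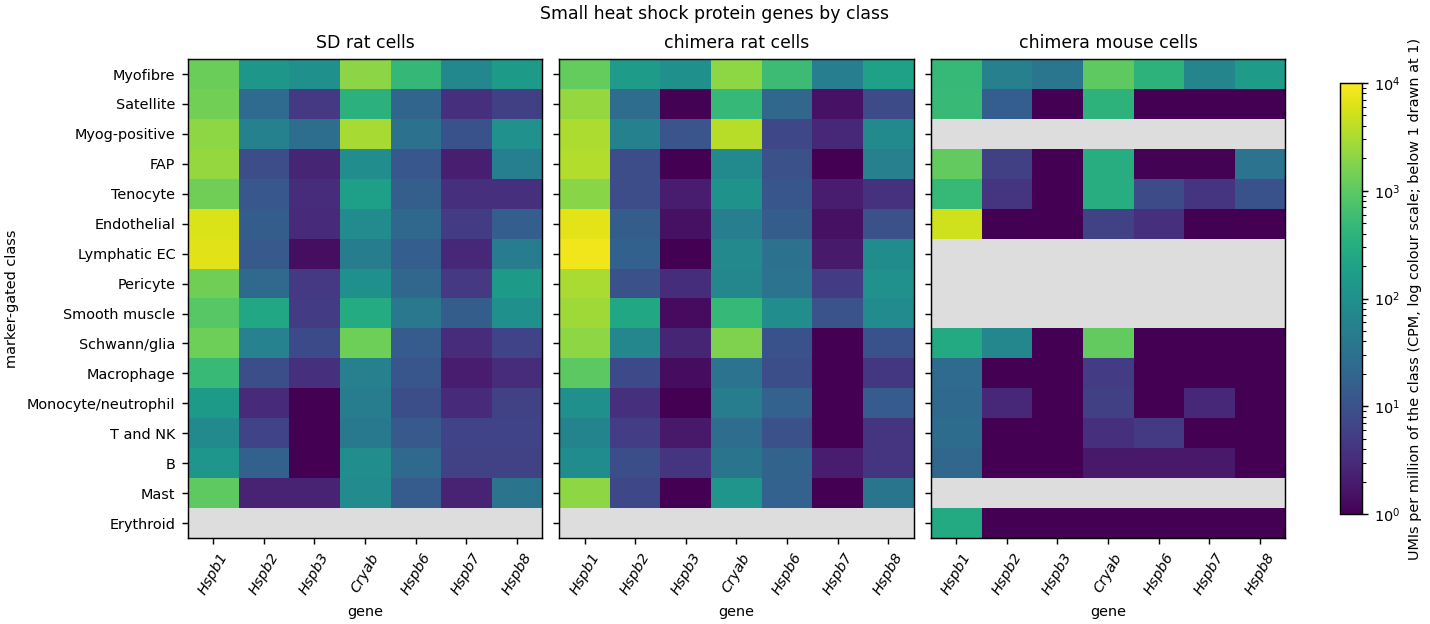
Level of each member (horizontal) in each marker-gated class (vertical) for SD rat, chimera rat and chimera mouse cells, as CPM on a log colour scale from 1 to 10000, with grey for classes under 20 cells. Hspb1 is brightest in both endothelial classes, while Hspb3, Hspb6 and Hspb7 are bright in the myofibre row of each panel.

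Digested muscle can release myofibre RNA into the suspension, so low levels outside myofibres were set against that background. The 17 rat myofibre markers took 0.781% of UMIs in SD rat FAP-like cells (fibro-adipogenic progenitors), 1.55% in endothelial-like and 1.44% in B-like cells. In chimera rat cells these shares were 0.392%, 0.594% and 0.615%. For every class the marker share, divided by that of myofibre-like cells and multiplied by a member's level there, gave the level that myofibre RNA alone would bring (the myofibre-RNA level). A ratio of measured level to this level near 1 was read as background. Free RNA of other classes is not covered by it.

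**Figure D2:**
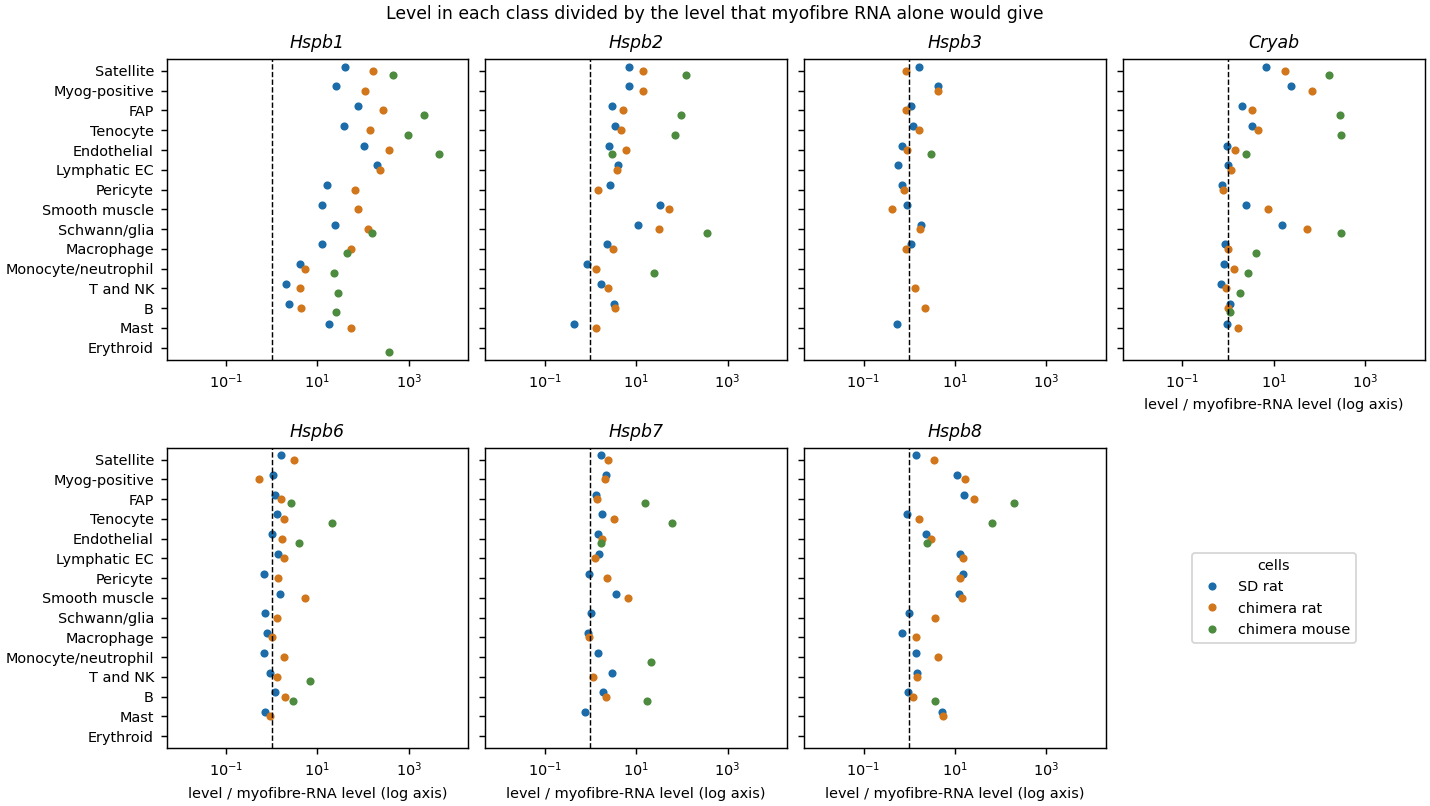
Measured level divided by the myofibre-RNA level (horizontal, log axis) for each member in each class outside myofibre-like cells, with blue for SD rat, orange for chimera rat and green for chimera mouse cells. SD rat points of Hspb6 lie between 0.667 and 1.59 around the dashed line at 1, while all Hspb1 points of the SD rat lie at 2.04 or above.

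Hspb1 (ENSRNOG00000023546), the actin-associated chaperone also called HSP27, was highest in the endothelium of the rat libraries. SD rat lymphatic endothelial-like cells held 6502 CPM (6314 to 6693) and endothelial-like cells 6032 CPM (5955 to 6111). In chimera rat cells the same classes held 8120 CPM (7874 to 8371) and 6962 CPM (6872 to 7053), and the 1069 chimera mouse endothelial-like cells held 5205 CPM (5155 to 5256). SD rat FAP-like cells, the next class in order, were 2.60-fold lower than endothelial-like cells.

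FAP-like cells of the SD rat held 2318 CPM and Myog-positive cells with 2081 CPM of Hspb1. Satellite-like cells at 1408 CPM, pericyte-like at 1373, tenocyte-like at 1353, Schwann and glia-like at 1312 and myofibre-like at 1284 CPM followed. Neighbours among these last 5 classes were not separable, since their intervals overlapped. Mast-like cells at 1035, smooth muscle-like at 920 and macrophage-like at 506 CPM came after them. This order is of summed counts, and the median cell gave another. Among SD rat cells of at least 1000 UMIs, the median was 978 CPM in myofibre-like and 431 CPM in FAP-like cells. It was 389 CPM in satellite-like, 358 CPM in tenocyte-like and 251 CPM in Schwann and glia-like cells.

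T and NK-like cells held the least Hspb1 among the rat classes. The level was 77.8 CPM (49.8 to 116) in SD rat T and NK-like cells, 64.1 CPM in chimera rat and 25.5 CPM in chimera mouse T and NK-like cells. In mouse cells, macrophage-like at 25.4, monocyte and neutrophil-like at 23.1 and B-like at 20.9 CPM lay beside or under them. An Hspb1 UMI was found in 92.4% of SD rat endothelial-like cells (median depth 2795 UMIs) against 42.5% of T and NK-like cells (6639.5 UMIs), which are not expected to use the gene. At 1000 UMIs per cell these shares were 86.7% and 15%, with 85.5% and 7.64% in chimera rat and 83.2% and 3.70% in chimera mouse cells. Although FAP-like cells were below the endothelium per UMI, they carried 63.7% of all 134292 Hspb1 UMIs in gated SD rat cells, because they were the most numerous and among the deepest cells, and endothelial-like cells carried 17.1%.

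Cryab (ENSRNOG00000010524), the desmin-binding chaperone also called alpha-B crystallin, peaked in Myog-positive cells. The SD rat held 3042 CPM (2902 to 3187) in 44 such cells and 2030 CPM (1996 to 2064) in myofibre-like cells, and chimera rat cells held 3659 CPM (3545 to 3775) and 2115 CPM (2075 to 2157). Schwann and glia-like cells came next with 1308 CPM (1220 to 1401) in the SD rat, 1673 CPM (1547 to 1806) in chimera rat and 1102 CPM (891 to 1349) in chimera mouse cells. All 3 populations thus had Cryab in this class, at 15.1, 54.5 and 294 times the myofibre-RNA level.

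Satellite-like cells, the muscle stem cells, held 372 CPM of Cryab in the SD rat, 470 in chimera rat and 391 CPM in chimera mouse cells, which was 6.78, 17.7 and 165 times the myofibre-RNA level. Smooth muscle-like cells held 287 CPM in the SD rat and 482 CPM in chimera rat cells. Tenocyte-like and FAP-like cells held less Cryab but above that level, with 179 and 91.7 CPM in the SD rat (3.28 and 1.97 times) and 114 and 78.5 CPM in chimera rat cells (4.56 and 3.36 times). In the other rat classes Cryab lay at 0.700 to 1.61 times the myofibre-RNA level. SD rat endothelial-like cells held 86.2 CPM at 0.932 times the myofibre-RNA level, T and NK-like cells 42.1 CPM at 0.700 times and B-like cells 93.2 CPM at 1.08 times.

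Hspb2 (ENSRNOG00000051792), the gene that lies next to Cryab in mammalian genomes and encodes a partner of the myotonic dystrophy kinase, had its highest level in smooth muscle-like cells. These held 241 CPM (178 to 320; 48 UMIs in 47 cells) in the SD rat and 247 CPM (213 to 284; 189 UMIs in 106 cells) in chimera rat cells, at 33.5 and 51.2 times the myofibre-RNA level. Myofibre-like cells held 129 CPM (120 to 138) in the SD rat, 155 CPM (144 to 166) in chimera rat and 56.0 CPM (20.6 to 122) in chimera mouse cells. The intervals of smooth muscle-like and myofibre-like cells did not overlap in either rat library.

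Schwann and glia-like cells also carried Hspb2, at 59.3 CPM in the SD rat, 71.9 CPM in chimera rat and 70.4 CPM in chimera mouse cells (6 UMIs). Myog-positive cells held 56.7 and 56.9 CPM in SD and chimera rat cells, and satellite-like cells 24.6 and 27.1 CPM. The class order of Hspb2 thus resembled that of Cryab apart from smooth muscle, and Pearson's r of their log2(CPM + 10) levels was 0.738 over 15 SD rat classes and 0.807 in chimera rat cells. These classes share a library and its free RNA, so r is a description. Whether the counting used strand is not given in the sources used here, and reads of overlapping transcripts of these neighbouring genes could not be told apart without it.

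Hspb3 (ENSRNOG00000010992), a small member that forms complexes with Hspb2, was nearly restricted to the muscle lineage in level. Myofibre-like cells held 101 CPM (94.0 to 109) in the SD rat, 102 CPM (93.0 to 111) in chimera rat and 37.3 CPM (10.2 to 95.6; 4 UMIs) in chimera mouse cells. Myog-positive cells followed with 27.5 CPM (16 UMIs) and 11.2 CPM (12 UMIs) in SD and chimera rat cells, and the other SD rat classes held 8.02 CPM or less. In chimera mouse cells, 0 Hspb3 UMIs were found in FAP-like cells, which allows up to 1.59 CPM.

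Hspb6 (ENSRNOG00000020922), known as HSP20 and a phosphorylation target in contractile cells, was highest in myofibre-like cells of every population. The levels were 467 CPM (451 to 484) in the SD rat, 550 CPM (529 to 571) in chimera rat and 383 CPM (275 to 519) in chimera mouse cells. Smooth muscle-like cells came next with 40.2 CPM (17.4 to 79.3; 8 UMIs) and 91.4 CPM (71.2 to 115; 70 UMIs) in SD and chimera rat cells, at 1.53 and 5.34 times the myofibre-RNA level. In the SD rat, Hspb6 lay at 0.667 to 1.59 times that level in all 14 classes outside myofibre-like cells. In chimera rat cells, satellite-like (20.7 CPM), lymphatic endothelial-like (31.4 CPM), B-like (18.5 CPM) and monocyte and neutrophil-like cells (17.9 CPM) also lay above this range. So did tenocyte-like (11.9 CPM) and endothelial-like cells (15.2 CPM), with FAP-like cells (9.77 CPM) just over its upper end. Myog-positive cells (7.46 CPM) lay below the range.

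Hspb7 (ENSRNOG00000029079), a muscle chaperone of actin and filamin, followed Hspb6. Myofibre-like cells held 73.4 CPM (67.0 to 80.2), 51.5 CPM (45.3 to 58.3) and 65.3 CPM (26.3 to 135; 7 UMIs) in SD rat, chimera rat and chimera mouse cells. Smooth muscle-like cells held 15.1 CPM (3 UMIs) and 10.4 CPM (8 UMIs), at 3.67 and 6.52 times the myofibre-RNA level. The r between Hspb7 and Hspb6 was 0.977 over SD rat classes and 0.955 over chimera rat classes. Both genes were far higher in myofibre-like cells than in any other class, and r without that class is not given here.

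Hspb8 (ENSRNOG00000022392), the partner of Bag3, was spread over several classes. Pericyte-like cells held 152 CPM (117 to 193) and 104 CPM (80.2 to 134) in SD and chimera rat cells, and myofibre-like cells 149 CPM (140 to 158), 193 CPM (181 to 206) and, in chimera mouse cells, 159 CPM (92.4 to 254). The intervals overlapped between pericyte-like and myofibre-like cells in the SD rat and not in chimera rat cells, where myofibre-like cells were higher. Myog-positive cells held 106 and 83.0 CPM and smooth muscle-like cells 101 and 86.1 CPM.

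Unlike Hspb6 and Hspb7, Hspb8 was present well above background in FAP-like cells. The levels were 53.1 CPM (50.8 to 55.5) in the SD rat, 56.0 CPM (53.3 to 58.8) in chimera rat and 33.3 CPM (25.6 to 42.6) in chimera mouse cells, at 15.6, 26.3 and 198 times the myofibre-RNA level. An Hspb8 UMI was found in 29.4% of SD rat FAP-like cells (median depth 11026 UMIs) against 5.00% of T and NK-like cells (6639.5 UMIs), and in 4.85% and 2.50% at 1000 UMIs per cell. The unthinned level was 6.48 CPM in T and NK-like cells. Tenocyte-like cells, the other fibroblast class, held 3.52 CPM at 0.878 times the myofibre-RNA level in the SD rat and 3.73 CPM in chimera rat cells. Lymphatic endothelial-like cells held 47.2 and 88.3 CPM against 15.5 and 9.73 CPM in endothelial-like cells.

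The genes whose class order was most like each member's were taken from 10517 genes by Pearson's r of log2(CPM + 10) over the 15 SD rat classes. For Hspb1 they were Wwtr1 (0.90), Ttc23 (0.876) and Yes1 (0.874), and no other member exceeded 0.427 with it. Cryab was nearest to Cobl (0.940), Prickle4 (0.918) and Jph1 (0.917), and Hspb2 to Map3k7cl (0.876), Dtna (0.865) and Tpm2 (0.854). Hspb3 was nearest to Ndufb3 (0.975) and Uqcr10 (0.961), and both Hspb6 and Hspb7 to Trim54 (0.982 and 0.978). Hspb8 was nearest to Guf1 (0.816), but that pair reached only 0.425 over chimera rat classes, while Hspb1 and Wwtr1 reached 0.817 and Cryab and Cobl 0.937.

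Among myofibre-like cells, Cryab, Hspb6 and Hspb7 were higher in slow than in fast cells of both libraries. Slow and fast cells were split by the share of UMIs on slow against fast fibre markers, mostly myosins and troponins, with more than 50% for slow. This gave 40 slow and 1564 fast cells in the SD rat and 14 and 834 in chimera rat cells. In the SD rat 6 cells and in the chimera 1 cell lay between 40% and 60%, and 0 of 30 chimera mouse cells were slow. Slow cells were shallower, with medians of 2533 against 3564 UMIs in the SD rat and 2602 against 4906.5 in chimera rat cells. A part of depth in the differences was not tested.

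Cryab was found in 40 of 40 slow SD rat cells, at 368 to 58521 CPM per cell with a median of 11500, and in 1414 of 1564 fast cells with a median of 1266 and a maximum of 49976 CPM. In chimera rat cells 14 of 14 slow cells held it, at 2669 to 27075 CPM with a median of 8396, against a median of 1297 CPM in fast cells. The cells overlapped, but the class medians were far apart in both libraries. Summed over cells, Cryab was 12479 against 1809 CPM in the SD rat, a log2 ratio of 2.79 (95% exact binomial interval 2.71 to 2.86), and 13674 against 1954 CPM in chimera rat cells, a log2 ratio of 2.81 (2.71 to 2.91). Of the 915 Cryab UMIs in slow cells of the chimera, 425 lay in 1 cell.

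Hspb7 and Hspb6 were higher in slow cells as well. Hspb7 was 652 CPM in slow against 61.2 CPM in fast SD rat cells (log2 ratio 3.41, 3.07 to 3.75) and 463 against 45.7 CPM in chimera rat cells (3.34, 2.75 to 3.89). An Hspb7 UMI was found in 67.5% of slow and 15.7% of fast SD rat cells and in 64.3% and 14.4% of chimera rat cells. Hspb6 was 2252 against 430 CPM in the SD rat (2.39, 2.22 to 2.56) and 1913 against 531 CPM in chimera rat cells (1.85, 1.58 to 2.11). Hspb1 was higher in slow cells by 1.20 (1.05 to 1.35) on the log2 scale in the SD rat and by 0.63 (0.35 to 0.90) in chimera rat cells.

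The remaining members did not separate the fibre types in this way. Hspb2 had log2 ratios of 0.32 (-0.37 to 0.92) and 0.64 (-0.18 to 1.35), and Hspb8 of -0.04 (-0.76 to 0.60) and 0.22 (-0.62 to 0.95). Hspb3 had 0.20 (-0.62 to 0.91) in the SD rat and 1.26 (0.44 to 1.97) in chimera rat cells, the latter from 16 UMIs in slow cells, of which 9 came from 1 cell. In all, 4 of 7 members in each library were at least 2-fold higher in slow cells, against 18.7% of all genes tested in the SD rat and 20.1% in chimera rat cells. The 4 were Hspb1, Cryab, Hspb6 and Hspb7 in the SD rat, and Hspb3 in place of Hspb1 in chimera rat cells. Without its highest cell Hspb3 had 0.79 (-0.53 to 1.84) in chimera rat cells, and the SD rat ratio of Hspb1 was 0.96 as a mean over cells.

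**Figure D3:**
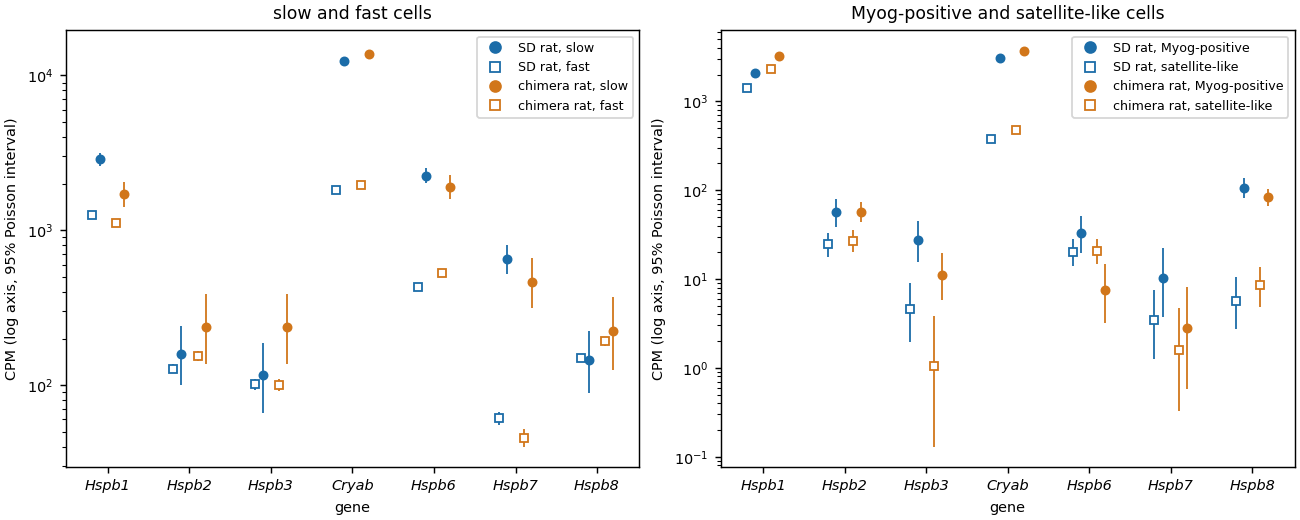
Left, CPM (log axis, 95% Poisson intervals) of each member in slow (filled) and fast (open) myofibre-like cells, and right, in Myog-positive (filled) and satellite-like (open) cells, with blue for SD rat and orange for chimera rat cells. Cryab, Hspb6 and Hspb7 lie higher in slow cells of both libraries, and Cryab and Hspb8 lie higher in Myog-positive cells of both.

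Between satellite-like cells and Myog-positive cells, Cryab and Hspb8 had the largest log2 ratios among members with at least 50 UMIs. The Myog-positive class was gated on Myog together with other markers of myogenic cells entering differentiation. A Myog UMI was not required of each cell. Cryab was 372 CPM in 244 satellite-like and 3042 CPM in 44 Myog-positive SD rat cells (log2 ratio 3.03, 2.90 to 3.16), and 470 and 3659 CPM in 245 and 87 chimera rat cells (2.96, 2.86 to 3.07). Hspb8 was 5.73 and 106 CPM in the SD rat (4.22, 3.24 to 5.34) and 8.50 and 83.0 CPM in chimera rat cells (3.29, 2.51 to 4.15). In satellite-like cells Hspb8 lay at 1.43 times the myofibre-RNA level in the SD rat and 3.52 times in chimera rat cells, and in Myog-positive cells at 11.1 and 16.8 times. The highest Myog-positive cell of the SD rat held 23 of 62 Hspb8 UMIs, and that of the chimera 28 of 89, without which the chimera ratio was 2.76 (1.95 to 3.65).

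Hspb2 was also more than 2-fold higher in Myog-positive cells, with log2 ratios of 1.20 (0.50 to 1.89) and 1.07 (0.51 to 1.63), while Hspb1 had 0.56 (0.46 to 0.66) and 0.49 (0.42 to 0.55). One SD rat Myog-positive cell held 433 of 1212 Hspb1 UMIs, and without it the ratio was -0.03 (-0.15 to 0.09). Without the highest cell of the chimera it was 0.42 (0.35 to 0.48), and that of Hspb2 was 0.99, while as a mean over cells Hspb2 had 0.80 in the SD rat. Of all genes tested, 7.93% in the SD rat and 7.46% in chimera rat cells were at least 2-fold higher in Myog-positive cells. Of the members compared, 3 were so in each library, namely Cryab, Hspb2 and Hspb8. Hspb3 and Hspb7 had fewer than 50 UMIs over both classes and were not compared, nor was Hspb6 in chimera rat cells. Hspb6 in the SD rat had a log2 ratio of 0.70 (-0.19 to 1.55). Among partners of the family, filamin C (Flnc) had a log2 ratio of 3.05 in the SD rat and 2.46 in chimera rat cells, and Bag3 1.49 and 0.67. Desmin (Des) had 1.33 and 1.40, but it was itself a marker of the satellite gate, so its ratio was partly set by the gate.

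The chimera's rat cells were then compared with the SD rat class by class, for genes with at least 50 UMIs over both libraries. In myofibre-like cells 0 of 7 members were past 2-fold, against 9.64% of all genes tested in either direction. The log2 ratios (chimera rat over SD rat) were -0.20 (-0.25 to -0.15) for Hspb1, 0.27 (0.12 to 0.41) for Hspb2, 0.00 (-0.17 to 0.17) for Hspb3, 0.06 (0.02 to 0.10) for Cryab and 0.23 (0.16 to 0.31) for Hspb6. Hspb7 stood at -0.51 (-0.74 to -0.29) and Hspb8 at 0.38 (0.24 to 0.51). The members' median was 0.06 and that of all genes -0.19. In satellite-like cells 0 of 4 members tested were past 2-fold, against 3.55% of all genes, and Hspb1 had the largest ratio, 0.72 (0.65 to 0.79).

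Hspb1 was the member with the most classes past 2-fold. In smooth muscle-like cells it was 920 CPM (792 to 1063) in the SD rat and 2737 CPM (2621 to 2856) in chimera rat cells, a log2 ratio of 1.57 (1.35 to 1.80), where 6.96% of genes were at least 2-fold higher. In pericyte-like cells it was 1373 and 3119 CPM (1.18, 1.05 to 1.32; 2.06% of genes higher), and in mast-like cells 1035 and 2109 CPM (1.03, 0.84 to 1.21; 4.17% of genes higher). A single mast-like cell held 312 of 578 chimera UMIs and 100 of 421 UMIs came from 1 SD rat cell, and in SD rat smooth muscle-like cells 1 cell held 61 of 183 UMIs. The pericyte ratio was -0.68 with clusters in place of gates, and the mast ratio was -0.38 with clusters and -0.83 with a stricter gate. Without the highest cell of each library the mast ratio was 0.42 (0.18 to 0.66), the pericyte ratio 1.30 (1.15 to 1.45) and the smooth muscle ratio 1.83 (1.56 to 2.11).

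Below 2-fold, Hspb1 was higher in the chimera by 0.96 (0.88 to 1.04) in macrophage-like, 0.66 (0.52 to 0.80) in Schwann and glia-like, 0.64 (0.54 to 0.73) in Myog-positive, 0.57 (0.56 to 0.59) in FAP-like and 0.50 (0.45 to 0.55) in tenocyte-like cells. It was higher by 0.32 (0.26 to 0.38) in lymphatic endothelial-like and 0.21 (0.18 to 0.23) in endothelial-like cells. These ratios are of summed counts, and the median cell did not always follow them. Among cells of at least 1000 UMIs, the median was 105 CPM in SD rat and 0 CPM in chimera rat macrophage-like cells. In tenocyte-like cells it was 358 and 266 CPM, in FAP-like cells 431 and 515 CPM and in endothelial-like cells 3679 and 5207 CPM. With the UMIs of the mouse row added back, the endothelial ratio was 0.01 (-0.01 to 0.04) and the FAP ratio 0.40 (0.39 to 0.41). Myofibre-like cells were an exception to the direction of the summed ratios (-0.01 once the median of all genes was subtracted). So were monocyte and neutrophil-like, T and NK-like and B-like cells, and the intervals of these latter 3 classes included 0.

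In FAP-like cells 2 of 7 members were lower in the chimera, against 2.87% of genes. Hspb3 was 2.55 CPM (94 UMIs) in the SD rat and 0.953 CPM (28 UMIs) in chimera rat cells, a log2 ratio of -1.42 (-2.08 to -0.80), or -0.81 with species limits of 10% and 90%. Hspb7 was 2.20 CPM (81 UMIs) and 0.783 CPM (23 UMIs), a log2 ratio of -1.49 (-2.22 to -0.81). Both genes lay at 0.847 to 1.37 times the myofibre-RNA level in these cells, and the myofibre marker share itself fell from 0.781% to 0.392%. Cryab in B-like cells was likewise lower, with 93.2 CPM (16 UMIs) and 36.4 CPM (55 UMIs), a log2 ratio of -1.36 (-2.18 to -0.45; 10.0% of genes lower), at 1.08 and 0.992 times the myofibre-RNA level. The myofibre marker share of B-like cells was 1.44% in the SD rat and 0.615% in chimera rat cells, and its part in these 3 values was not tested.

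Hspb6 in smooth muscle-like cells, at 40.2 and 91.4 CPM, had a log2 ratio of 1.18 (0.13 to 2.45). In all, 4 of 57 pairs of member and class were at least 2-fold higher in the chimera, against 3.32% of all pairs of gene and class, and 3 were at least 2-fold lower, against 4.69%. With a minimum of 1 UMI, 8 of 104 pairs were higher and 22 lower, against 18.2% and 16.9% of all pairs. The number higher was 1 of 57 with mouse rows added back and 0 of 38 with species limits of 10% and 90%. Those species limits left 2874 chimera rat cells, with 14 smooth muscle-like and 12 pericyte-like cells, both under the minimum of 20. A change of the mixture within a class and a change per cell cannot be told apart from these sums.

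**Figure D4:**
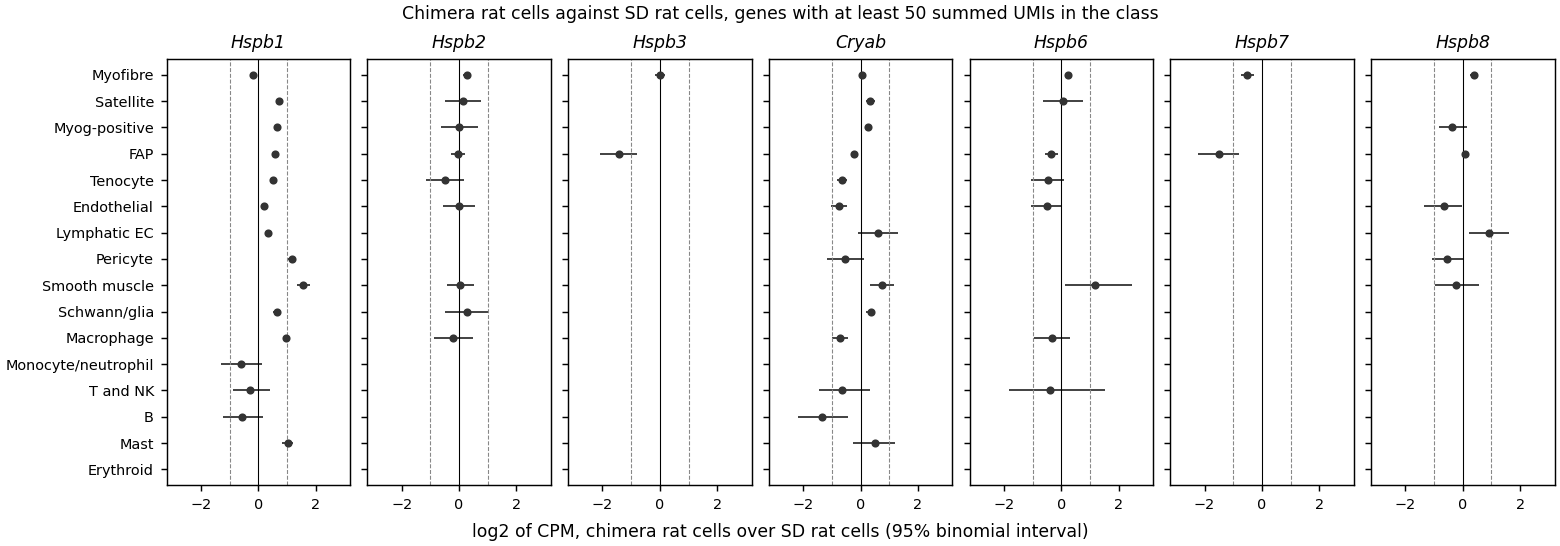
Log2 ratio of CPM, chimera rat over SD rat cells, for each member and class with at least 50 UMIs, with 95% binomial intervals and dashed lines at 2-fold. The 7 myofibre points lie between -0.51 and 0.38, and Hspb1 in smooth muscle-like cells lies at 1.57.

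The heat shock machinery that works with the family was read from a list of 24 HSP70, HSP90 and co-chaperone genes, of which 22 had rat rows. In myofibre-like cells 0 of 20 tested were at least 2-fold higher in the chimera (1.81% of genes) and 1 was lower (7.84% of genes), the co-chaperone Dnaja4 (log2 ratio -1.26), with a list median of -0.29. In satellite-like cells 0 of 19 were past 2-fold (3.55% of genes). In smooth muscle-like cells, where Hspb1 differed most, 6 of 15 were higher (6.96% of genes), and the list median was 0.98. Among the 6 were Dnajb1 (2.58), Hspa8 (1.41) and Dnaja1 (1.11). Of 15 cytoskeletal and autophagy partners tested in myofibre-like cells, 1 was higher in the chimera (1.81% of genes), Flnc (1.05; 62.6 against 30.3 CPM), and 1 was lower (7.84% of genes), with a list median of -0.28.

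Genes known to be induced while tissue is dissociated were read beside these results. In myofibre-like cells 2 of 8 were lower in the chimera (7.84% of genes), namely Fos (-2.0; 30.9 against 123 CPM) and Fosb (-1.84). In smooth muscle-like cells 0 of 8 were past 2-fold (17.0% of genes in either direction), with a list median of 0.19. In mast-like cells 5 of 8 were higher (4.17% of genes), with a list median of 1.43. In FAP-like cells 2 of 8 were higher (2.26% of genes), with a list median of 0.62 beside 0.08 for all genes. Their part in the Hspb1 ratios was not tested.

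In the chimera, mouse cells could be set beside rat cells of the same class and animal. Mouse and rat rows were counted against separate gene annotations, so a ratio between them holds differences of annotation and read assignment as well as of expression. Ratios of summed counts on both rows are therefore given too. Over gene pairs the median log2 ratio (mouse over rat cells) ranged from -0.40 in macrophage-like to 0.14 in T and NK-like cells.

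Hspb1 (ENSMUSG00000004951 in the mouse) was lower in mouse cells in the 9 classes with at least 50 UMIs, on own rows. In endothelial-like cells it was 5205 CPM in mouse and 6962 CPM in rat cells, a log2 ratio of -0.42 (-0.44 to -0.40). The gap was wider in satellite-like cells, with 493 and 2315 CPM (-2.23, -2.50 to -1.97; both rows -1.97), in FAP-like cells, with 1094 and 3449 CPM (-1.66, -1.72 to -1.59; both rows -1.40), and in macrophage-like cells, with 25.4 and 984 CPM (-5.28, -6.34 to -4.40; both rows -3.99). Of all gene pairs 22.3%, 16.7% and 33.3% were at least 2-fold lower in mouse cells of these 3 classes. The mouse macrophage level rested on 10 UMIs, and 56.5% of the pair's UMIs in these cells lay on the rat row. Leiden clusters gave 0 mouse macrophage-like cells. In T and NK-like cells the ratio was -1.33 (-2.04 to -0.69) on own rows but -0.27 (-0.72 to 0.16) on both rows, where 58.8% of the pair's UMIs lay on the rat row.

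Cryab (ENSMUSG00000032060) went the opposite way in fibroblasts. Mouse FAP-like cells held 312 CPM (288 to 339) against 78.5 CPM (75.4 to 81.8) in rat FAP-like cells, a log2 ratio of 1.99 (1.86 to 2.12; both rows 2.14), where 19.2% of gene pairs were at least 2-fold higher. Mouse tenocyte-like cells held 311 CPM against 114 CPM (1.45, 1.17 to 1.71; both rows 1.61; 12.5% of pairs higher). This call was lost with species limits of 10% and 90% (0.62) and with a stricter gate (0.99). The Cryab UMIs of mouse FAP-like cells were spread over 69.8% of 126 cells, and the highest cell held 77 of 591. In mouse endothelial-like cells, by contrast, 4.21% of cells held a Cryab UMI (6.07 CPM).

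In the muscle lineage the mouse cells were few, and 6 of the 30 myofibre-like ones remained with a limit of 90% mouse UMIs. Mouse satellite-like cells (29 cells) had 391 CPM of Cryab against 470 CPM in rat cells (-0.27, -0.58 to 0.03). Mouse myofibre-like cells (30 cells) had 1036 against 2115 CPM of Cryab (-1.03, -1.31 to -0.76), 485 against 1118 CPM of Hspb1 (-1.20, -1.63 to -0.81) and 383 against 550 CPM of Hspb6 (-0.52, -1.0 to -0.08). Hspb7 (0.34, -0.99 to 1.41) and Hspb8 (-0.28, -1.07 to 0.41) had intervals that included 0, from 7 and 17 mouse UMIs. Hspb2 (-1.47, -2.92 to -0.34) and Hspb3 (-1.45, -3.33 to -0.08) rested on 6 and 4 mouse UMIs. Thus 4 of 7 members were at least 2-fold lower in mouse cells on own rows. The Cryab ratio was under 2-fold on both rows (-0.83, -1.09 to -0.59) and with Leiden clusters (-0.91). On both rows Hspb1 had -1.11, Hspb2 -1.34 and Hspb3 -1.24. In these cells 34.8% of gene pairs were at least 2-fold lower and 14.2% higher, and the pair median was -0.38. With 0 Hspb6, Hspb7 and Hspb8 UMIs in mouse satellite-like cells, the counts allow levels up to 11.8 CPM each.

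Within a class, Hspb1 was spread very unevenly over cells. Among 3194 SD rat FAP-like cells of at least 1000 UMIs, the per-cell level had a lower quartile of 133, a median of 431, an upper quartile of 2211 and a maximum of 39522 CPM. The highest 10% of the cells by Hspb1, a split made after the data had been seen, held 58.9% of the class's Hspb1 UMIs and 10.6% of all its UMIs. In chimera rat FAP-like cells the median was 515 CPM and that share 55.0%, and in chimera mouse cells 133 CPM and 65.2%. The Hspb1 level of these cells was fixed by the split, and only other genes are described.

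In the Hspb1-high FAP-like cells, much of the heat shock machinery was high as well. Of the HSP70, HSP90 and co-chaperone list, 10 of 21 tested genes were at least 2-fold higher in the SD rat and 0 lower. Of all genes, 1.47% were higher and 3.77% lower. In chimera rat cells 10 of 21 were higher (1.38% of genes) and in chimera mouse cells 12 of 18 (3.47% of genes). The co-chaperone Dnajb1 was 1843 CPM in 319 Hspb1-high and 352 CPM in 2875 other SD rat cells (log2 ratio 2.39), 3157 and 756 CPM in chimera rat (2.06), and 2781 and 570 CPM in chimera mouse cells (2.29). Depth did not separate the cells, with medians of 11513 and 10965 UMIs in the SD rat.

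Hsph1, an HSP110 exchange factor, had log2 ratios of 2.11, 1.81 and 1.92 in SD rat, chimera rat and chimera mouse cells, and Bag3 of 1.96, 1.82 and 1.75. The mitochondrial chaperonin Hspd1 had 1.88, 1.64 and 1.73, and Hsp90aa1 1.49, 1.27 and 2.15. The inducible HSP70 genes Hspa1a and Hspa1b, compared in mouse cells only, had 1.81 and 2.08. Among the members themselves, Cryab had 0.65, 0.78 and 1.53, Hspb8 0.26 and 0.42 in the rat populations, and Hspb2 -0.53 and -0.49. Dissociation stress genes were at least 2-fold higher for 6 of 8, 5 of 8 and 8 of 10 genes in the same cells, and their part in the pattern was not tested.

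**Figure D5:**
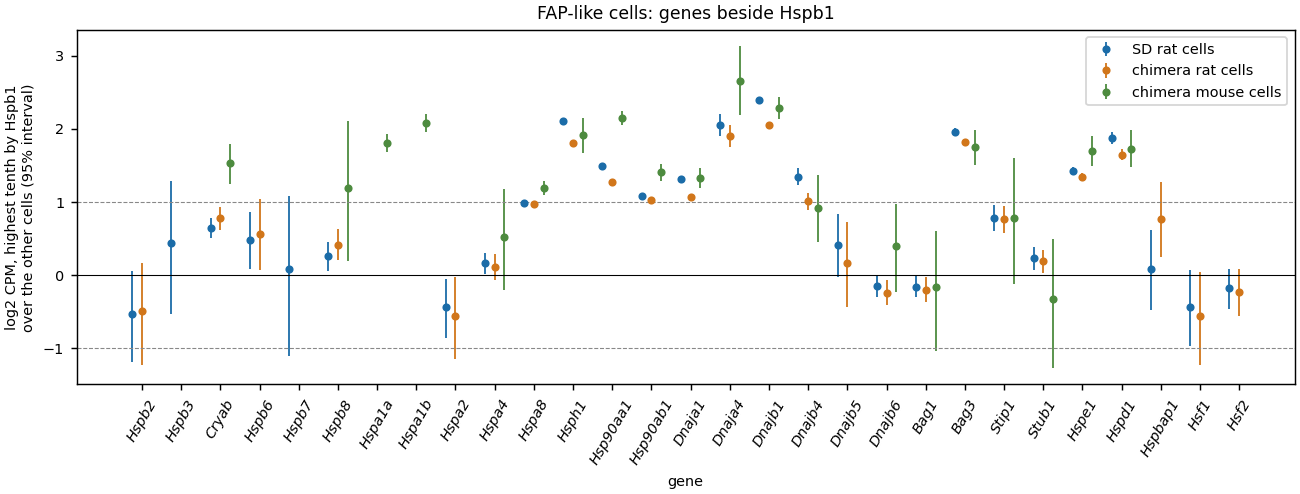
Log2 ratio of CPM in the highest 10% of FAP-like cells by Hspb1 over the other FAP-like cells, for other members and the HSP70, HSP90 and co-chaperone list, with 95% intervals and dashed lines at 2-fold. Dnajb1, Hsph1, Bag3 and Hspd1 lie above 1 in SD rat (blue), chimera rat (orange) and chimera mouse (green) cells, while Hspb2 lies below 0.

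The same split was made in other classes. In macrophage-like cells the highest 10% held 77.5% and 84.6% of Hspb1 UMIs in SD and chimera rat cells, with 9 of 18 (3.16% of genes) and 12 of 20 (3.71% of genes) machinery genes higher. In satellite-like cells the shares were 62.4% and 56.8%, with 6 of 18 genes higher in each library (1.96% and 2.42% of genes). A further 2 and 1 of these genes were lower (8.13% and 7.62% of genes). In tenocyte-like cells 2 of 18 genes were higher in the SD rat (1.95% of genes) and 11 of 19 in chimera rat cells (2.46% of genes). In SD rat Schwann and glia-like cells 7 of 12 were higher (3.46% of genes) and 2 lower (18.2% of genes), from 11 Hspb1-high cells. In endothelial-like cells the shares were 29.4%, 25.1% and 27.7% in SD rat, chimera rat and chimera mouse cells and 6 of 19, 5 of 19 and 10 of 24 machinery genes higher (1.20%, 2.47% and 1.29% of genes).

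In myofibre-like cells with high Hspb1, 3 of the 6 other members were at least 2-fold higher in each library, against 7.27% of all genes in the SD rat and 3.77% in chimera rat cells. Hspb7 had log2 ratios of 2.39 and 3.07 in SD and chimera rat cells, Cryab 1.86 and 2.12, Hspb6 1.19 and 0.91 and Hspb8 0.82 and 1.44, while Hspb2 had 0.37 and 0.45 and Hspb3 -0.08 and 0.29. The co-chaperone Dnajb1 had -0.08 and 0.03. Of the machinery list 4 of 20 and 1 of 18 genes were at least 2-fold higher. Dissociation stress genes were at least 2-fold higher for 7 of 8 and 3 of 8 genes, and their part was not tested. Median depth was 2992 UMIs in Hspb1-high and 3898 UMIs in other SD rat cells, and 4781 and 4907 UMIs in chimera rat cells. Slow cells made up 18 of 144 Hspb1-high and 18 of 1296 other SD rat cells, and 4 of 84 and 9 of 757 chimera rat cells. The difference between classes in these counts was not tested.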

How the data were processed

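Single-cell RNA of 2 libraries was read from deposited count matrices. Per the labels, the authors made these UMI counts with Cell Ranger 7.1.0 on a joint reference of mRatBN7.2 and GRCm39; the counting of strand is not given in the sources used here. Cells with at least 500 UMIs, 200 genes and at most 20% mitochondrial UMIs were kept, and Scrublet doublets (3.65% of chimera and 1.83% of SD rat cells) were removed with scanpy 1.11.5 in Python 3.11.15 (numpy 2.4.6, scipy 1.17.1, pandas 2.3.3). A cell was gated to 1 of 16 classes by its best marker score of at least 0.2, from at least 3 markers and 1.5 times the next class; this rule was set after the data were seen. Classes of under 20 cells are not reported. The members and gene lists were chosen with earlier results of these data known. Counts were summed per class and divided by UMIs of the same species, and a gene was compared at 50 or more summed UMIs and called at 2-fold. Intervals are 95% exact (Poisson for levels, Clopper-Pearson for ratios and shares), and a count of 0 allows 3 counts. Shares at equal depth were thinned to 1000 UMIs. The ratio code was tested on simulated data. Genes named by pattern were the 3 with the highest r per member, and list genes were named by size of ratio; 1 listed gene is not reported here.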

Additional observations from a re-analysis of the deposited data

Results flagged for a closer look

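Effects of the same contrast, chimera rat over SD rat, pointed in opposite directions in different classes for 4 members, and the difference between classes was not tested. Hspb1 had a log2 ratio of 1.57 in smooth muscle-like and -0.20 in myofibre-like cells, the latter -0.01 once the median of all genes was subtracted. Cryab had 0.75 in smooth muscle-like and -1.36 in B-like cells, the latter at the myofibre-RNA level in both libraries. Hspb6 had 1.18 in smooth muscle-like cells, from 8 UMIs in the SD rat, and -0.35 in FAP-like cells. Its SD rat FAP level lay near the myofibre-RNA level. The myofibre marker share of FAP-like cells was 0.781% in the SD rat and 0.392% in chimera rat cells, and its part was not tested. Hspb8 had 0.90 in lymphatic endothelial-like and -0.67 in endothelial-like cells.

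Member UMIs also appeared in data that no comparison used. Of the 1653 chimera barcodes of mixed species, 451 had at least 10% of their UMIs on myofibre markers of either species. In these, Cryab had 2164 UMIs on the rat row and 1377 on the mouse row, and Hspb6 had 612 and 456. The mouse row took 38.9% of Cryab and 42.7% of Hspb6 UMIs. Both rows together gave 1594 CPM of Cryab and 481 CPM of Hspb6, beside 2115 and 550 CPM in rat myofibre-like cells.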

How the results depend on the processing

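Each value was recomputed under other filters, gates, species limits and weights. Of 2725 values 2370 stayed within their interval or, for counts, near the main count, 352 moved and 3 changed sign. A change of sign was counted only for ratios past 2-fold in the main setting, and the cause was not tested. Those 3 were Hspb1 in mast-like cells, from 1.03 to -0.38 (Leiden clusters) and -0.83 (stricter gate margin), and in pericyte-like cells, from 1.18 to -0.68 (Leiden clusters). Pairs of member and class at least 2-fold higher in the chimera went from 4 of 57 to 8 of 104 with a minimum of 1 UMI, 1 of 57 with mouse rows added back and 0 of 38 with species limits of 10% and 90%. Those lower went from 3 of 57 to 22 of 104 with a minimum of 1 UMI, 0 of 26 with 500 UMIs and 6 of 57 with a mean over cells. Over all genes the shares lower were 4.69%, 16.9%, 2.44% and 5.96%. HSP70, HSP90 and co-chaperone genes past 2-fold in myofibre-like and satellite-like cells went from 1 to 0 with 500 UMIs, and to 3 with a mean over cells or limits of 10% and 90%. Members highest in myofibre-like cells went from 3 to 6 in the SD rat with Leiden clusters and from 4 to 0 in chimera mouse cells with limits of 10% and 90%, where 6 mouse myofibre-like cells remained, under the minimum of 20. Cryab in mouse over rat FAP-like cells went from 1.99 to 1.85 (Leiden clusters) and 2.16 (mean over cells), and Hspb1 in satellite-like cells from -2.23 to -1.66 (Leiden clusters) and -1.90 (stricter margin). For Cryab in Myog-positive over satellite-like cells, 3.03 became 2.90 (mean over cells) and 3.34 (stricter margin) in the SD rat, and 2.96 became 2.71 (10% and 90%) and 3.2 (stricter margin) in the chimera. With the cell of most Cryab left out, chosen after seeing the data, these were 2.87 and 2.82. For Cryab in slow over fast cells, 2.79 became 2.96 (slow and fast cut at 80% and 20%) and 2.69 (stricter margin) in the SD rat, and 2.81 became 2.46 (mean over cells) and 2.65 (10% and 90%) in the chimera, and with the highest cell left out 2.70 and 2.63. No paired analysis was possible because each group has 1 library, which also left no replicate to leave out.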

Other observations

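Hspb11, an intraflagellar transport gene that carries the family's name, was counted at 16.9 CPM in SD rat and 21.2 CPM in chimera rat myofibre-like cells. Hspb9 and Odf1, related genes of the testis, had 0 UMIs in the myofibre-like cells of both libraries.

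In the 451 mixed-species barcodes rich in myofibre RNA, the mouse row took 50.4% of Hspb7, 43.0% of Hspb3, 41.1% of Hspb2, 37.7% of Hspb8 and 36.6% of Hspb1 UMIs. The 7 members thus lay between 36.6% and 50.4% mouse in these barcodes, and whether a barcode held a fused fibre or RNA of separate cells was not tested.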
